A study of Mus musculus with 6 samples.

Results

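Inflammasomes are protein platforms that macrophages assemble in the cytosol after they sense microbes or damage. A sensor protein recruits the adaptor ASC, which gathers and activates caspase-1, and caspase-1 then cuts the precursors of the cytokines IL-1β and IL-18 and the pore-forming protein gasdermin D. Assembly usually needs a priming signal first, in which Toll-like receptors and NF-κB raise the transcripts of some components, so transcript levels describe the supply of parts and not the activity of the assembled complex. The genes examined here were 10 parts of this machinery: the sensors Nlrp3, Nlrc4, Naip2, Naip5 and Aim2, the NLRP3 partner kinase Nek7, the adaptor gene Pycard (encoding ASC), the caspase genes Casp1 and Casp4, and the gasdermin gene Gsdmd. They were taken by symbol from the table of deposited counts. All 10 had a row among its 15168 genes and all passed the filter on low counts, which left 11878 genes for testing.

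RNA came from macrophages sorted from full-thickness wounds on the dorsal skin of female wild-type C57BL6/J mice on Day 3 after wounding. There were 3 samples (A, B and C) from young mice, labelled 12 weeks, and 3 samples (A, B and C) from aged mice, labelled 24 months. Neither group carried a genetic change or was given an experimental drug. The methods state that mice were wounded under isoflurane and received buprenorphine for pain. The labels describe the sorted cells as positive for F4/80 and CD64, and the methods add CD45 and CD11b and state that Ly6G-positive neutrophils were not gated out. How many mice gave each sample is not stated in the sources used here, so p-values measure the spread between these samples, which may be partly technical. Total counts ran from 15270106 to 17927485 per sample, and the 10 genes together took 4233 to 6547 of them. Single genes were measured with between 43 and 1920 counts in a sample, with the fewest for Nlrc4, Aim2, Naip2 and Naip5. Values are CPM, the standard scaling of counts to library size, on library sizes corrected by TMM, where 1 count was worth 0.0553 to 0.0700 CPM. Because the samples are bulk RNA, fewer cells of a type and less RNA per cell cannot be told apart.

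Transcripts of the sorted proteins were present in every sample, with Ptprc (CD45) at 190 to 308 CPM, Fcgr1 (CD64) at 422 to 513 CPM, Itgam (CD11b) at 334 to 822 CPM and Adgre1 (F4/80) at 172 to 357 CPM. Aged B stood apart in markers of other skin cells. Its 10 keratinocyte markers summed to 205 CPM, against 0.924 to 3.22 CPM in the other 5 samples, and its 6 fibroblast markers summed to 119 CPM, against 12.4 to 40.9 CPM. The keratin gene Krt14 had 1259 counts in aged B and 0 to 14 in each of the other samples, and Col1a1 was at 15.6 CPM in aged B and 1.12 to 4.01 CPM elsewhere. The summed level of 13 neutrophil markers was 716 to 1216 CPM in young and 924 to 1582 CPM in aged samples. Of 7 lymphocyte markers with a row, the summed level was at most 5.58 CPM in any sample, and Cd3e was at 0.0660 to 1.19 CPM.

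The sequences before the start of 3 of these genes are shown because Nlrp3 was the gene that rose, while Casp1 and Casp4 are neighbours on the same strand of chromosome 9, 1536 bases apart, and had no called change. Each run holds the 250 bases before a RefSeq start in GRCm38.p6, written 5′ to 3′ on the strand of the gene, and capitals mark a match to a motif searched on both strands. The Nlrp3 window is chr11:59541319-59541568 on the plus strand, the Casp1 window chr9:5298267-5298516 on the plus strand and the Casp4 window chr9:5308599-5308848 on the plus strand. Nlrp3 has a further RefSeq start downstream and Casp4 another start 11 bases downstream, which were searched as well. The window before the downstream Nlrp3 start, chr11:59542436-59542685, held none of the motifs searched.
Nlrp3: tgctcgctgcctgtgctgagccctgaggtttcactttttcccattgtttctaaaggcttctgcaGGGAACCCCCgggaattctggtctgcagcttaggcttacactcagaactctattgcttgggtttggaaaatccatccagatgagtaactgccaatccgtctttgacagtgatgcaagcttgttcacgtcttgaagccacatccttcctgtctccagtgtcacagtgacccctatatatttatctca
Casp1: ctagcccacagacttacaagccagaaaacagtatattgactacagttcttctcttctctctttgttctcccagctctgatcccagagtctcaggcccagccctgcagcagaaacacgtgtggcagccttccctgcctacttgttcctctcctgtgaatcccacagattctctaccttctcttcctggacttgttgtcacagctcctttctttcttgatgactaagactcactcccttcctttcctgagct
Casp4: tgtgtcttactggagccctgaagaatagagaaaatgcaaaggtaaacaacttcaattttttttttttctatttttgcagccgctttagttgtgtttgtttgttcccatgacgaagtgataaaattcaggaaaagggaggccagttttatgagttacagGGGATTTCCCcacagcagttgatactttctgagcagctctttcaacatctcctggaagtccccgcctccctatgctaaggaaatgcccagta
An NF-κB-type motif, searched as GGGA, any 4 bases and CC, was found 186 to 177 bases before the Nlrp3 start, as GGGAACCCCC. It was found 92 to 83 bases before the Casp4 start, as GGGATTTCCC, where the pattern with its 4 free bases fits the letters of either strand. It was also found 32 to 23 bases before the start of Nek7. It occurred in 17.6% of 32851 such windows of all genes in the table. The interferon-response motif GAAA, any 2 bases and GAAA, which 2.98% of all windows hold, and the AP-1 motif TGAGTCA, which 4.46% hold, were not found in the windows of the 9 genes with an entry (Nlrp3, Nlrc4, Aim2, Pycard, Casp1, Casp4, Nek7, Naip2 and Naip5), nor was the CRE motif TGACGTCA, held by 1.55% of windows. The PU.1-type motif GAGGAAGT stood before Aim2 and, on the other strand, before Pycard, and 2.44% of all windows hold it. These matches describe letters and are not evidence of binding. NF-κB-type letters stood before genes with and without a called change.

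Of the 10 genes, Nlrp3 was the 1 gene called between the ages, and it was higher in aged macrophages. NLRP3 senses potassium loss, membrane damage and other disturbances in the cell, and its gene lies on chromosome 11 of mm10 from 59541568 to 59566957. Nlrp3 was at 16.5, 17.0 and 16.9 CPM in young A, B and C and at 50.5, 41.5 and 49.9 CPM in aged A, B and C. The young samples lay close together and every aged sample was well above every young sample. Mean Nlrp3 was 16.8 ± 0.250 CPM (SD, n = 3) at the young age and 47.3 ± 5.02 CPM at the aged, a 2.81-fold rise with a 95% interval of 2.19 to 3.62. On the log2 scale the change was 1.49 ± 0.16 (SE). The adjusted p-value was 0.00136, from the quasi-likelihood test of edgeR over all genes tested, adjusted by the method of Benjamini and Hochberg, and a gene is named as called below where this value was under 0.05. This was higher than the log2 fold change of 97.8% of the genes tested. When each of the 6 samples was left out in turn, the log2 fold change ran from 1.45 to 1.59 and the adjusted p-value from 0.00150 to 0.0173, the highest p-value being that without young C. Without aged B it was 1.59 (edgeR adjusted p = 0.00150).

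Against this, 1 of 10 genes was called higher (10%), where 9.73% of all genes tested were, and 0 of 10 were called lower, where 7.97% of all genes tested were. In either direction 17.7% of all genes tested were called. Without young A, 2 of the 10 genes were called lower, against 9.29% of all genes tested in that fit. Before adjustment edgeR gave 1 of the 10 genes as lower at p under 0.05, Casp1, and DESeq2 and limma-voom also called 0 lower after adjustment. With the study's further demand of a change over 2-fold, Nlrp3 was still the 1 gene called, where 4.59% of all genes tested were called higher, 4.20% lower and 8.79% in either direction. Samples of the ages did not overlap in 1 of the 10 genes, again Nlrp3, against 38.2% of all genes tested (19.2% higher in aged and 19.0% lower). Leaving out a sample raises this share for all genes too. It was 5 of 10 against 54.1% of all genes without young A, 2 of 10 against 49.9% without aged A and 48.4% without aged B, 3 of 10 against 44.7% without aged C, and 1 of 10 against 46.0% and 43.2% without young B and young C. The median log2 fold change of the 10 genes was -0.16 beside -0.02 over all genes tested, and 7 of the 10 had a negative value.

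**Figure D1:**
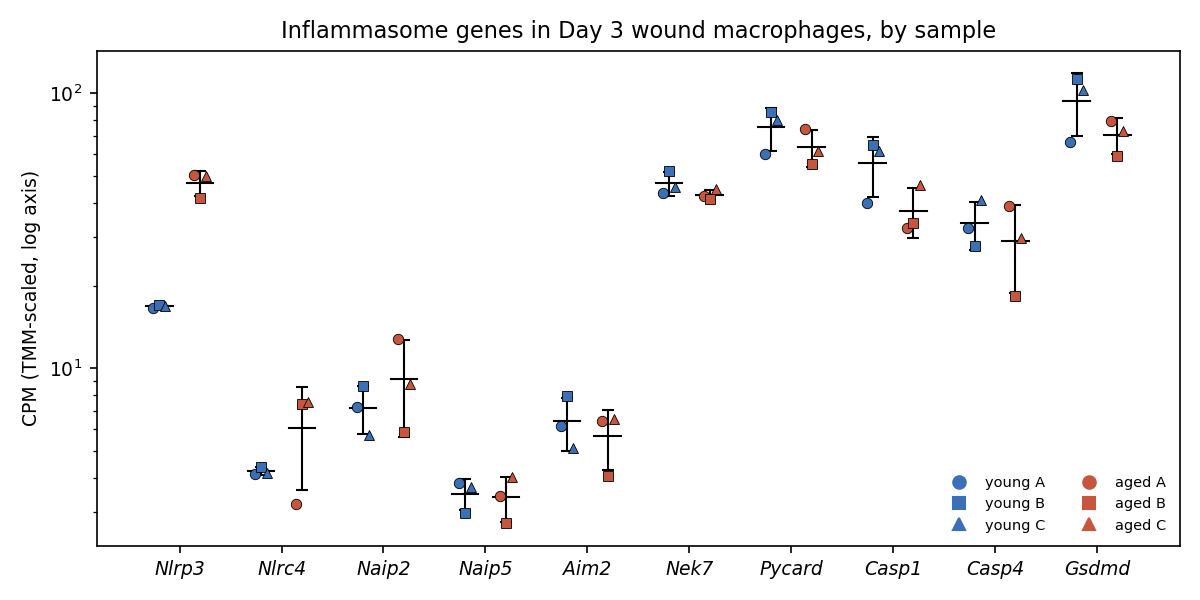
CPM (TMM-scaled, log axis) of the 10 genes in the 3 young (blue) and 3 aged (red) samples, with circles, squares and triangles for samples A, B and C, a black line for the mean and bars for 1 SD. Nlrp3 is the gene whose groups are apart, at 16.5 to 17.0 CPM in young and 41.5 to 50.5 CPM in aged samples, while the samples of the other 9 genes overlap.

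The remaining sensors showed no called change, and their intervals were wide. NLRC4 forms the inflammasome that NAIP proteins switch on, NAIP2 after binding the rod protein of bacterial secretion systems and NAIP5 after binding flagellin. Nlrc4 (chromosome 17, 74425438 to 74459143) was at 4.14, 4.40 and 4.16 CPM in young A, B and C and at 3.22, 7.44 and 7.53 CPM in aged A, B and C. Aged A was the lowest of the 6 samples and aged B and C were the highest, so the groups overlapped. Its log2 fold change was 0.52 (95% interval -0.22 to 1.26, edgeR adjusted p = 0.295), and without aged A it was 0.82 with an edgeR adjusted p of 0.0681. Naip2 (chromosome 13, 100144063 to 100202093) was at 7.24, 8.62 and 5.74 CPM in young and 12.8, 5.85 and 8.76 CPM in aged samples A, B and C. Aged A was the highest for Naip2, the reverse of its place for Nlrc4. Naip2 had a log2 fold change of 0.34 (95% interval -0.33 to 1.01, edgeR adjusted p = 0.457).

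Naip5 (chromosome 13, 100211739 to 100246324) was the least abundant of the 10 genes, at 3.81, 2.99 and 3.70 CPM in young and 3.43, 2.73 and 4.01 CPM in aged samples A, B and C. The groups covered nearly the same range, and the log2 fold change was -0.04 (95% interval -0.70 to 0.61, edgeR adjusted p = 0.934). AIM2 binds double-stranded DNA in the cytosol. Aim2 (chromosome 1, 173350879 to 173466041) was at 6.19, 7.91 and 5.15 CPM in young and 6.44, 4.07 and 6.54 CPM in aged samples A, B and C. Aged B was the lowest, and young A, aged A and aged C lay side by side. Its log2 fold change was -0.18 (95% interval -0.80 to 0.45, edgeR adjusted p = 0.692), and the sign turned to 0.01 without young B and to 0.03 without aged B.

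The Naip genes are related copies in a row on chromosome 13, and counting could divide reads between them where their sequences are the same. Of the 75-base windows along the principal transcript of Naip5 in GENCODE M21, 23.8% also occur in the transcript of another gene, most often Naip6, and for Naip2 the share was 10.9%, most often Naip1. No window of the other 8 genes was shared with another gene. Naip6 was at 0.490 to 2.78 CPM and Naip1 at 0.0660 to 1.23 CPM over the 6 samples. Naip1 had 1 to 21 counts in a sample and was not tested. The deposited estimates were further than 0.01 from a whole number in 2 samples for Naip5 and in 3 samples for Pycard, which shares no windows, and in 0 samples for Naip2 and the other 7 genes. The likeness of these copies extends before their starts, as the last 120 bases before the RefSeq starts of Naip2 (chr13:100202123-100202242, minus strand) and Naip5 (chr13:100247337-100247456, minus strand) show. Capitals mark the longest run the windows share, 34 bases.
Naip2: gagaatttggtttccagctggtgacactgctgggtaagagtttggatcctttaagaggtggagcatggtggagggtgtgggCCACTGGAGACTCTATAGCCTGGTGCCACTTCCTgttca
Naip5: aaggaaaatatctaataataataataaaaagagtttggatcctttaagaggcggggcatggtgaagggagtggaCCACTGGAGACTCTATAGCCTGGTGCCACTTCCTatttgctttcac

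Neither Nek7 nor the adaptor gene was called. NEK7 is a kinase that binds NLRP3 and is needed for its assembly. Nek7 (chromosome 1, 138482875 to 138620142) was at 43.3, 52.3 and 45.6 CPM in young and 42.4, 41.2 and 44.7 CPM in aged samples A, B and C. Young B was the highest, and the other 5 samples lay within 41.2 to 45.6 CPM. Its log2 fold change of -0.14 had the narrowest 95% interval of the 10 genes, -0.48 to 0.20 (edgeR adjusted p = 0.558). Pycard (chromosome 7, 127989708 to 127993868), whose protein ASC links NLRP3 and AIM2 to caspase-1, was at 60.1, 85.2 and 80.3 CPM in young and 74.3, 55.2 and 61.8 CPM in aged samples. Young A lay below aged A and aged C. Pycard had a log2 fold change of -0.24 (95% interval -0.65 to 0.18, edgeR adjusted p = 0.396). Over their whole spans, introns included, Pycard, Aim2 and Nek7 each overlap a gene on the other strand (Gm45205, Cadm3 and Gm28501). Use of strand is not stated, so some of their reads may not be separable from those of that partner. Whether the exons overlap was not checked. On their own strand Nlrc4 overlaps CT033749.1, Nek7 overlaps Gm37080 and Gm37101, and Naip2 overlaps Gm18413.

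Neither caspase gene nor the gasdermin gene passed the test. Caspase-1 is the protease of the canonical inflammasome. Casp1 (chromosome 9, 5298508 to 5307291) was at 40.1, 64.9 and 62.0 CPM in young and 32.3, 33.8 and 46.3 CPM in aged samples A, B and C. Young B and C were above all aged samples, and young A lay between aged B and aged C. The means were 55.6 ± 13.6 CPM (SD, n = 3) and 37.5 ± 7.68 CPM, and the log2 fold change was -0.57 (SE 0.22), with an unadjusted p of 0.0274 and an adjusted p of 0.0979 from edgeR. Gasdermin D forms the pores through which IL-1β leaves and by which the cell dies. Gsdmd (chromosome 15, 75862327 to 75867409) was at 66.5, 113 and 103 CPM in young and 79.5, 59.0 and 73.2 CPM in aged samples A, B and C. Young A was again the low young sample, and Gsdmd had a log2 fold change of -0.41 (95% interval -0.89 to 0.06, edgeR adjusted p = 0.200). Without young A, edgeR called both as lower, Casp1 at a log2 fold change of -0.76 (adjusted p = 0.0228) and Gsdmd at -0.61 (adjusted p = 0.0396), and neither was called when any of the other 5 samples was left out.

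Casp4 encodes the mouse protein also known as caspase-11, which binds bacterial lipopolysaccharide in the cytosol and cuts gasdermin D directly. Casp4 (chromosome 9, 5308828 to 5336784) was at 32.3, 27.8 and 41.0 CPM in young and 39.0, 18.4 and 29.9 CPM in aged samples A, B and C. The lowest sample was aged B, in which the keratinocyte and fibroblast transcripts were highest, and the part of those cells in this value was not tested. The log2 fold change of Casp4 was -0.21 (95% interval -0.80 to 0.37, edgeR adjusted p = 0.598), and it turned to 0.04 without aged B.

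**Figure D2:**
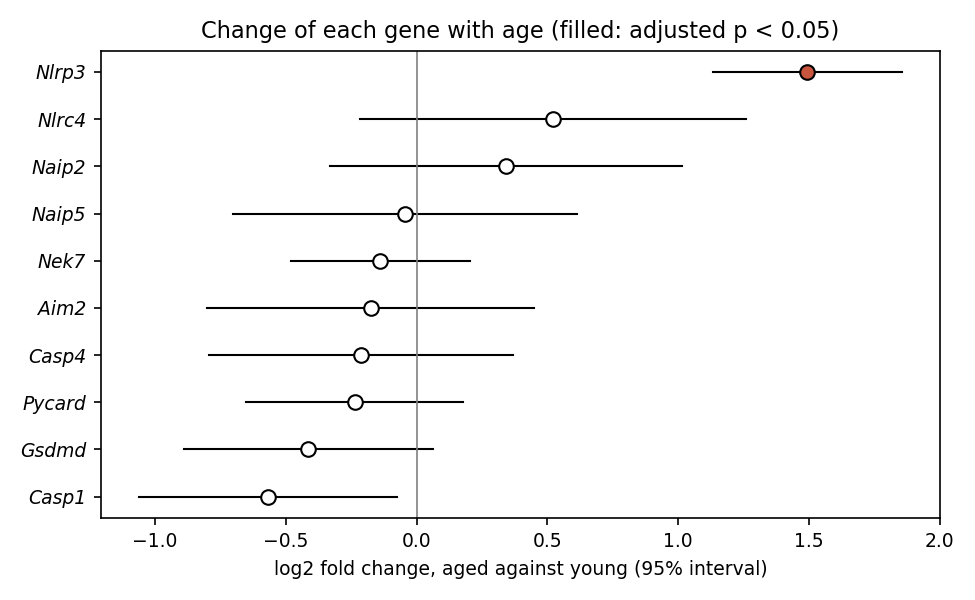
Log2 fold change of each gene in aged against young macrophages, with its 95% interval from the edgeR fit, not adjusted for the number of genes. Nlrp3 (1.49) is the gene past an adjusted p of 0.05 (filled), the interval of Casp1 (-1.06 to -0.08) leaves out 0 before adjustment only, and those of the other 8 genes include 0.

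Levels of different genes were compared per kilobase. Per kilobase of the principal transcript, Gsdmd was the most abundant of the 10 genes in both ages, at 52.5 ± 13.6 (SD, n = 3) CPM per kilobase in young and 39.4 ± 5.86 in aged macrophages. Casp1 followed at 37.2 ± 9.06 and 25.0 ± 5.13, then Casp4 at 23.5 ± 4.66 and 20.3 ± 7.20 and Pycard at 19.8 ± 3.50 and 16.8 ± 2.55 CPM per kilobase. From Gsdmd to Pycard, neighbours in this order differed by less than the sum of their SDs, except Gsdmd and Casp1 in aged macrophages. Nlrp3 came after Nek7 in young macrophages, at 4.18 ± 0.0621 against 8.96 ± 0.891 CPM per kilobase, and before it in aged macrophages, at 11.8 ± 1.25 against 8.13 ± 0.343. Aim2 and the Naip2, Nlrc4 and Naip5 transcripts took the last places in both ages, between 0.652 and 2.26 CPM per kilobase, and among these Aim2 and Naip2 did not differ beyond their SDs at either age. The place of Pycard depends on its length, since its principal transcript is 3800 bases long but codes for protein over only 579. Per kilobase of coding sequence Pycard was first, at 129.9 ± 23.0 in young and 110.1 ± 16.7 in aged macrophages, and Nlrp3 was below Nek7 in both ages, at 5.42 and 15.3 against 52.0 and 47.2 CPM per kilobase. Other places turned too, as Nek7 then stood above Casp1 in both ages. Aim2 stood above Nlrp3 in young macrophages, at 6.04 ± 1.31 against 5.42 ± 0.0806 CPM per kilobase, a difference within the SD of Aim2.

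Ratios of counts within a sample need no scaling of libraries, and in them too Nlrp3 was higher against 4 partners in aged samples. The 4 partners had negative log2 fold changes, from -0.14 (Nek7) to -0.57 (Casp1), none of them called. The ratios therefore differed by more, 3.08-fold to 4.09-fold, than Nlrp3 itself (2.81-fold). These ratios were chosen after the values of the genes were seen. For each 100 counts of Pycard there were 27.5, 19.9 and 21.1 counts of Nlrp3 in young A, B and C and 68.0, 75.2 and 80.6 in aged A, B and C. For each 100 counts of Casp1 there were 31.6 ± 8.40 counts of Nlrp3 (SD, n = 3) at the young age and 129 ± 25.0 at the aged, a 4.09-fold difference of the means. Against Nek7 the ratio was 35.9 ± 3.00 in young and 110.5 ± 9.32 in aged, and against Gsdmd 18.8 ± 5.30 and 67.4 ± 3.47. In all 4 ratios each aged sample was above each young one (exact permutation test, two-sided, p = 0.1 for each, the smallest that 3 samples against 3 can give). Of all counts on the 10 genes, Nlrp3 took 5.90%, 4.43% and 4.60% in young A, B and C and 14.7%, 15.4% and 15.0% in aged A, B and C. The shares of Casp1 were 16.0 ± 1.49% in young and 12.0 ± 2.32% in aged and those of Gsdmd 27.0 ± 2.94% and 22.3 ± 0.672%, while the sum of the 10 genes overlapped between the ages, at 280.2 to 384 and 269 to 344 CPM.

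**Figure D3:**
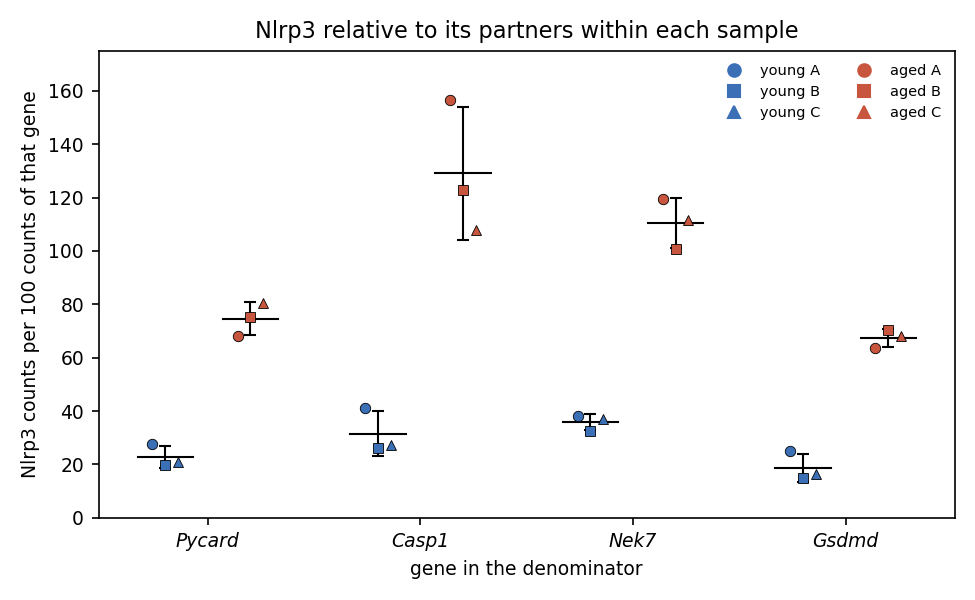
Nlrp3 counts for every 100 counts of Pycard, Casp1, Nek7 or Gsdmd in each young (blue) and aged (red) sample, with the mean and 1 SD in black. For Pycard the young samples sit between 19.9 and 27.5 and the aged samples between 68.0 and 80.6, and the groups are apart for the other 3 denominators too.

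Lists of genes around the inflammasome were then read from the same fit. The lists were written with earlier results of these data known, so their shares of called genes may partly reflect the choice of genes. They are described by their counts, without a test of the list, and each count is to be read against the 9.73% of all genes tested that were called higher and the 7.97% called lower. Among 15 tested genes of other cytosolic sensors and their relatives, 1 was called higher and 0 lower by edgeR (6.67% and 0%, under the shares of all genes). The list includes Ciita and Nlrc5, which are regulators of MHC genes. Before adjustment 2 were higher and 2 lower, with Ciita among the lower, and the median on the log2 scale was 0.10. The called gene was Mefv, which encodes pyrin, the sensor that reacts when bacterial toxins block RhoA. Mefv was at 61.7, 53.1 and 65.3 CPM in young and 110, 101 and 115 CPM in aged samples A, B and C. Every aged sample was above every young one, by 0.86 ± 0.16 (SE) on the log2 scale (edgeR adjusted p = 0.00954), and without young C the edgeR adjusted p was 0.0506. Among 6 other caspases tested, Casp6 alone was called, rising from 56.2 ± 6.22 to 103 ± 23.5 CPM (log2 fold change 0.87, edgeR adjusted p = 0.0191), a call lost without young B, young C or aged C.

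Among 23 tested regulators of inflammasomes 2 were called higher and 3 lower, in shares near those of all genes tested. Brcc3, a deubiquitinase that acts on NLRP3, fell from 24.8 ± 3.61 to 15.0 ± 0.598 CPM (log2 fold change -0.73, edgeR adjusted p = 0.0242). Zbp1, a sensor of Z-form nucleic acids that can lead to NLRP3 activation and to necroptosis, fell from 86.2 ± 17.9 to 34.3 ± 14.4 CPM (log2 fold change -1.33, edgeR adjusted p = 0.0151). Gbp3, an interferon-inducible guanylate-binding protein gene, fell by 1.09 on the log2 scale (edgeR adjusted p = 0.0456). Cd36, a scavenger receptor gene, and Bcl10, a signalling adaptor gene, rose by 0.83 and 0.62 on the log2 scale (edgeR adjusted p = 0.0346 and 0.0419). With 1 sample left out in turn, Brcc3 and Gbp3 were called in 1 of 6 fits, Cd36 and Bcl10 in 2 and Zbp1 in 4 (not without young B or young C), and without young C none of the 5 was called.

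In the list of pathway outputs, 12 genes were tested. Of these, 4 were called higher (33.3%, against 9.73% of all genes) and 1 lower (8.33%, against 7.97%). Gsdme, Ninj1, Chmp4b and Hmgb1 were not called (log2 fold changes 0.07, 0.36, 0.18 and -0.35, edgeR adjusted p = 0.895, 0.219, 0.640 and 0.172). Of the 3 cytokine genes of this pathway, Il1a and Il1b were called higher and Il18 was not called. Il1b, whose precursor caspase-1 cuts, was at 2780, 5485 and 4845 CPM in young and 9175, 6675 and 11838 CPM in aged samples A, B and C (log2 fold change 1.08 ± 0.29 SE, edgeR adjusted p = 0.0328). Il1a, the gene of the related alarmin IL-1α, rose most among the 12 genes of this list tested, from 90.2, 294 and 237 CPM to 1218, 930 and 1426 CPM. This was 2.52 ± 0.38 (SE) on the log2 scale (edgeR adjusted p = 0.00436). Il1a was called whichever sample was left out, whereas Il1b was called only when that sample was aged B (edgeR adjusted p = 0.0194 there and at most 0.129). Il18, the other classical substrate of caspase-1, was at 26.9, 39.8 and 42.7 CPM in young and 26.1, 25.0 and 38.8 CPM in aged samples. The groups overlapped, and no difference of Il18 was detected (log2 fold change -0.28, 95% interval -0.80 to 0.23, edgeR adjusted p = 0.417).

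Among the genes that restrain or receive these cytokines, Il1rn and Il1rap were called higher and Il18bp lower, whereas the receptor genes Il1r1 (log2 fold change 1.41, edgeR adjusted p = 0.0844) and Il1r2 (0.60, edgeR adjusted p = 0.296) were not called and Il18r1 was not tested. Il1rn, the IL-1 receptor antagonist gene, rose from 1431 ± 225 to 2380 ± 309 CPM (log2 fold change 0.73, edgeR adjusted p = 0.0313), a call kept in 2 of the 6 fits with a sample left out. Il1rap, the accessory chain of the IL-1 receptor, rose from 16.0 ± 2.55 to 45.4 ± 9.29 CPM (log2 fold change 1.50, edgeR adjusted p = 0.00351). Il18bp, which encodes the soluble inhibitor of IL-18, was at 14.0, 30.2 and 32.8 CPM in young and 5.95, 7.06 and 14.4 CPM in aged samples. It fell by 1.48 on the log2 scale (edgeR adjusted p = 0.0277), although young A and aged C overlapped, and the call was lost without young B, young C, aged A or aged B. Set against the protease, Il1b had 7737 ± 761 counts (SD, n = 3) per 100 counts of Casp1 in young samples and 24577 ± 4437 in aged ones, with no overlap. The ratio of Il1rn to Il1b overlapped between the ages, at 36.7 ± 18.3 and 26.6 ± 4.21 counts per 100 (two-sided exact permutation test, p = 0.5).

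**Figure D4:**
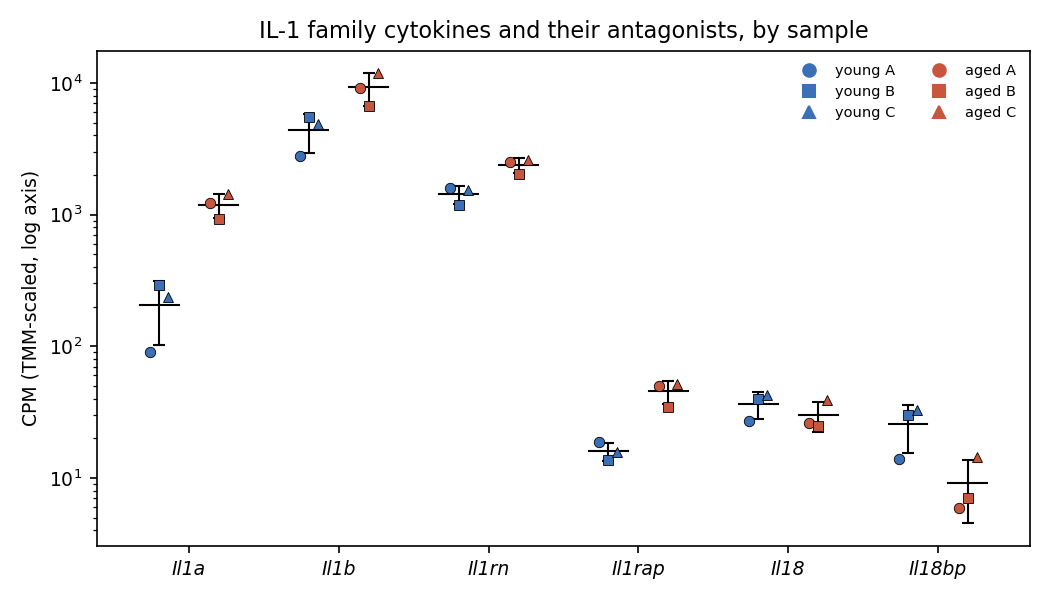
CPM (TMM-scaled, log axis) of IL-1 family cytokine genes, their antagonists and Il1rap in each young (blue) and aged (red) sample, with the mean and 1 SD in black. Il1a, Il1b, Il1rn and Il1rap have every aged sample above every young sample, whereas Il18 and Il18bp have overlapping samples.

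Of 7 tested partners in other forms of cell death, 2 were called higher (28.6%) and 1 lower (14.3%). Ripk3, a kinase of necroptosis, rose from 59.8 ± 7.67 to 97.2 ± 20.5 CPM (log2 fold change 0.70, edgeR adjusted p = 0.0327), while Mlkl, which encodes its pore-forming target, fell from 20.2 ± 6.39 to 10.8 ± 0.399 CPM (log2 fold change -0.90, edgeR adjusted p = 0.0332). Cflar, the gene of the caspase-8 inhibitor c-FLIP, rose from 58.7 ± 11.8 to 135.5 ± 4.34 CPM (log2 fold change 1.21, edgeR adjusted p = 0.00436). With 1 sample left out in turn, Cflar was called in 6 of 6 fits, Ripk3 in 2 and Mlkl in 1.

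Among the pathway lists, the priming list held the largest share of genes called higher. It includes Nfkb1, Tnf and Tlr4, which the paper had already reported as raised in aged wound macrophages, so this share is a description only. Its 21 tested genes encode receptors, adaptors, IRAK family proteins, transcription factors, the cytokine TNF and the NF-κB inhibitor gene product of Nfkbia. Of these, 12 were called higher (57.1%, against 9.73% of all genes) and 3 lower (14.3%, against 7.97%), with a median log2 fold change of 0.80. Genes that restrain the pathway are counted among those called higher, namely Irak3 (log2 fold change 1.27) and Nfkbia (1.01), and so is Tnf (1.07). Without young C the counts were 4 higher and 0 lower, where 1.24% and 0.548% of all genes were. Without aged C 6 were higher, where 2.87% of all genes were, and without young B 1 was lower, where 2.71% were. Tlr4, the lipopolysaccharide receptor, rose from 80.9 ± 13.6 to 234 ± 31.6 CPM (log2 fold change 1.53 ± 0.19 SE, edgeR adjusted p = 0.00202). Ticam1, the gene of the TLR adaptor TRIF, rose by 1.47 (edgeR adjusted p = 0.0243) and Nfkb1 by 1.41 (edgeR adjusted p = 0.00242) on the log2 scale. With 1 sample left out in turn Tlr4 and Nfkb1 were called in 6 of 6 fits and Ticam1 in 3, not without young B, young C or aged C. The change of Nlrp3, 1.49, was near these 3 largest rises of the list and above the list median of 0.80. A link between the priming genes and Nlrp3 was not tested. Among the genes called lower, the interferon signalling factors Irf7 and Stat2 fell by 1.58 and 0.73 on the log2 scale (edgeR adjusted p = 0.0152 and 0.0437). Irf7 was not called without young B or young C, and Stat2 was called in 1 of the 6 fits with a sample left out, that without young A. In a list of 20 interferon-stimulated genes, which shares 1 gene with the priming list, 0 were called higher (0 before adjustment, and 0 by DESeq2 and limma-voom) and 17 lower (85.0%, against 7.97% of all genes). The count of lower genes was 3 without young C, 7 without young B, 8 without aged B and 10 without aged A, and the shares of all genes called lower in these fits were 0.548%, 2.71%, 4.98% and 4.26%. Their median log2 fold change was -1.24, and the largest falls were in Ifit3 (-2.36), Ifi44 (-1.83) and Ifit2 (-1.80). Ifi44 rests on 7 to 57 counts in a sample, moved to -2.46 without aged C and was not called without young B, young C, aged A or aged B, and Ifit2 was not called without young C. Over the 84 tested genes of the pathway lists without the interferon-stimulated list, 22 were called higher (26.2%, against 9.73% of all genes) and 8 lower (9.52%, against 7.97%). The count of higher genes was 7 without young C, 10 without aged C and 14 without young B, where 1.24%, 2.87% and 3.57% of all genes were called higher, and that of lower genes was 0, 4 and 1 in the same order and 4 and 3 without aged A and aged B, where 0.548%, 1.58%, 2.71%, 4.26% and 4.98% of all genes were called lower.

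**Figure D5:**
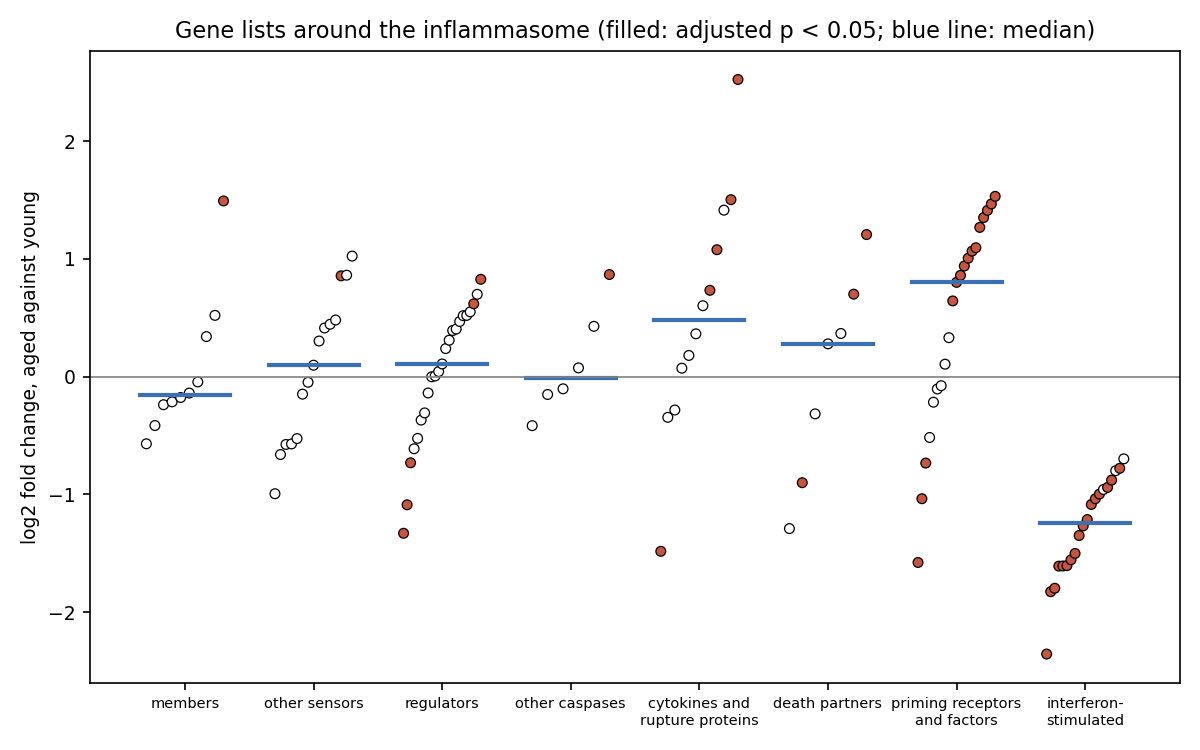
Log2 fold change of every tested gene in each list, aged against young, with filled points at an edgeR adjusted p under 0.05 and a blue line at the median of the list. The first column holds the 10 inflammasome genes, with Nlrp3 at 1.49 as the single filled point, the priming list has its median at 0.80, and all 20 interferon-stimulated genes lie below 0.

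Markers of other cells moved in part with these results. Of 12 neutrophil markers tested, 4 were called higher (33.3%, against 9.73% of all genes) and 0 lower (against 7.97%) in aged macrophages by edgeR (4 and 1 before adjustment), and their median on the log2 scale was 0.43. The called genes, named after their values were seen, were Cd177, Cxcr2, Lcn2 and Retnlg, with log2 fold changes of 1.62, 1.13, 0.99 and 0.85, and in Cd177, Lcn2 and Retnlg every aged sample was above every young one. The defining neutrophil gene Ly6g was at 6.13, 10.9 and 7.39 CPM in young and 9.59, 6.17 and 9.50 CPM in aged samples A, B and C, so its samples overlapped. S100a8 was at 108 to 168 CPM in young and 116 to 241 CPM in aged samples, and S100a9 at 184 to 320 and 158 to 411 CPM. Of 6 monocyte markers, 1 was called higher (16.7%) and 0 lower (3 and 0 before adjustment by edgeR), and their summed level was 1182 to 2848 CPM in young and 2801 to 3891 CPM in aged samples. Young A had the lowest summed level of both the neutrophil and the monocyte markers among the 6 samples. Of 6 dendritic cell markers tested, edgeR called 0 in either direction (1 higher and 1 lower before adjustment). Their summed level was 60.0, 33.8 and 23.5 CPM in young A, B and C and 96.8, 31.5 and 44.7 CPM in aged A, B and C, so that within each age it was highest in sample A. The chemokine receptor gene Xcr1, named after its values were seen, was at 19.2, 0.527 and 1.85 CPM in young and 34.4, 4.64 and 11.8 CPM in aged samples. Of 3 lymphocyte markers tested, edgeR called 0 higher and 1 lower (33.3%, against 7.97% of all genes), and 0 and 2 before adjustment. The called gene was Cd4, also named after its values were seen (log2 fold change -1.76, edgeR adjusted p = 0.0386, 5 to 48 counts in a sample). Among the 9 macrophage markers 2 were called higher (22.2%), among them Itgam (log2 fold change 0.99, edgeR adjusted p = 0.00735), and 1 lower (11.1%), Adgre1 (log2 fold change -0.69, edgeR adjusted p = 0.0292). With 1 sample left out in turn Itgam was called in 6 of 6 fits and Adgre1 in 2, those without young A or aged B. The part of neutrophil, monocyte and dendritic cell transcripts in the other results, among them the Casp1 and Gsdmd values of young A, was not tested.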

How the data were processed

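Macrophages from wounds of either age (3 samples each, Day 3) were sorted and profiled by low-input, paired-end RNA sequencing. The authors aligned reads with STAR 2.7.3a and quantified them to mm10 Ensembl transcripts (release 102) in Partek, and they deposited estimated counts per gene, of which 30.7% to 34.0% in a sample were not whole. Whether strand was used is not given in the sources used here. A further deposited table, with DESeq2-normalised counts, p-values, false discovery rates and fold changes of the same comparison, was not used. All 6 columns of the count table were mapped to samples by name.

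Counts were rounded to whole numbers and genes with low counts were removed (filterByExpr), leaving 11878 of 15168 genes. Aged was compared with young by the quasi-likelihood test of edgeR 4.0.16 (R 4.3.3) on TMM-scaled libraries over all 6 samples without covariates, and p-values were adjusted by the method of Benjamini and Hochberg over all genes tested. Common biological variation was 0.239. No pair of samples was a duplicate by a chi-square test of counts. The test was also run on counts simulated from the mean levels of these data, and that outcome is not given here. CPM used the same scaling, with Python 3.11.15 and pandas 2.3.3. Alternatives were DESeq2 1.42.0, its size factors within edgeR, limma 3.58.1 (voom with sample weights), no filter or at least 10 counts in every sample, the set letter as a block, unscaled CPM, a demand for over 2-fold change, and leaving out each sample in turn.

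Gene positions are those deposited with the counts. Overlaps of genes are from GENCODE M21, and levels per kilobase use its longest principal transcript. Sequences before gene starts are from RefSeq (GRCm38.p6), which matched 9 of the 10 genes. Gsdmd is named only. Counting could divide reads among Naip copies. By whole gene spans, introns included, Pycard, Aim2 and Nek7 overlap genes on the other strand and Nlrc4, Nek7 and Naip2 genes on their own. The 10 genes, the lists and the rule for naming genes were chosen with earlier results of these data known. Named were the 10 genes, the called genes of each pathway list (the 3 largest rises and falls where more than 6 were called), Il1b, Il1a, Il18, Naip1, Naip6 and defining marker genes. The values of 1 gene that this rule names are not reported here. Intervals describe the spread between samples, which may each hold several mice.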

Additional observations from a re-analysis of the deposited data

How the results depend on the processing

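Nlrp3 was called higher under all 12 alternative fits, with log2 fold changes of 1.45 to 1.59 and adjusted p-values of 1e-11 (DESeq2) to 0.0173 (edgeR without young C). With 1 sample left out in turn, the counts of the 10 genes called lower ran from 0 to 2 and of those whose groups did not overlap from 1 to 5, both highest without young A. The pathway lists had 7 (without young C) to 24 (without young A) genes called higher and 0 to 12 lower in these fits, and 12 higher and 5 lower where a change over 2-fold was also asked. The interferon-stimulated list had 3 (without young C) to 17 genes called lower. Over all genes the calls fell to 151 higher and 67 lower without young C and rose to 1574 and 1128 without young A, against 1156 and 947 with all samples, and limma-voom called 1933 and 1713. The cause of these shifts was not tested. Signs turned when a sample was left out for Aim2 (-0.31 to 0.0263, positive without young B or aged B), Casp4 (-0.48 to 0.0444, positive without aged B), Naip5 (-0.18 to 0.10, positive without young A or aged B), Naip6 (-0.0769 to 0.91), Ly6g (-0.12 to 0.33) and S100a9 (-0.0836 to 0.52), none of them called. DESeq2 size factors moved the median log2 fold change of all genes from -0.02 to -0.01. On unscaled totals mean CPM in young and aged was 17.9 and 44.4 for Nlrp3 (16.8 and 47.3 with TMM), 4.51 and 5.71 for Nlrc4 and 50.2 and 40.2 for Nek7, so that the difference in Nlrp3 was smaller. On these unscaled values the samples of Nek7 and of Casp1 also did not overlap between the ages, with young above aged. With TMM both overlapped.

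The samples share only a set letter. Same-letter samples deviated from their group means together by correlations of 0.181 (A), -0.0206 (B) and 0.114 (C), and not every sample correlated best with its own letter. With the letter as a replicate block Nlrp3 had a log2 fold change of 1.49 (edgeR adjusted p = 0.00400), and 1202 genes were called higher and 912 lower. Of the other genes named by the rule, Gbp3 (log2 fold change -1.02, edgeR adjusted p = 0.0859) and Stat2 (-0.72, edgeR adjusted p = 0.0513) lost their calls under the block, and Gbp3, Bcl10 and Stat2 lost theirs without the filter on low counts (edgeR adjusted p = 0.0511, 0.0525 and 0.0519). Nlrc4, Aim2, Naip2 and Naip5 had the fewest counts, and how much of their error comes from counting was not tested.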
